A study of Mus musculus with 6 samples.

Results

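Genes that mark the cells of brain blood vessels were compared between the cerebella of mice labelled as lacking Slc39a14 (KO) and of wild-type mice (WT). The set was a list of 33 gene names among the 55098 genes of the deposited table, with 23 genes of endothelial cells, 6 of pericytes and 4 of vascular smooth muscle. Genes were listed by name, without a threshold on measured values, and every gene of the list was found. RNA-seq had been done on whole cerebella of male mice at postnatal day 60. The libraries labelled KO came from animals 2, 4 and 6 and those labelled WT from animals 1, 3 and 5, with 1 library per animal. Slc39a14 encodes the metal transporter ZIP14, and the series title presents these mice as modelling a dystonia and parkinsonism of childhood onset that manganese brings about. The sources used here do not state how the allele was made, which part of the gene it lacks or whether all cells lost it.

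Brain capillaries are lined by endothelial cells that tight junctions seal to one another, so that glucose, amino acids and lipids reach the tissue through carrier proteins and not between the cells. This is the blood-brain barrier, and efflux pumps on the same cells return many foreign compounds to the blood. Pericytes sit on the capillary wall within a shared basement membrane and are known to help keep the barrier tight, while smooth muscle cells wrap arterioles and set their diameter by contraction.

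The libraries held 13805997 to 15788135 gene counts each. Slc39a14 itself had 654, 572 and 640 counts in KO 2, KO 4 and KO 6, against 582, 646 and 598 counts in WT 1, WT 3 and WT 5. The log2 fold change of Slc39a14 was -0.003 (SE 0.11; adjusted p = 1.0 by edgeR's quasi-likelihood test with the Benjamini-Hochberg method). Its count therefore gave no check of the genotypes, and each direction given here rests on the labels. Genes known for cerebellar neurons were high in all 6 libraries: Pcp2 and Calb1, of Purkinje cells, lay at 90.2 CPM or more, and Gabra6 and Cbln3, of granule cells, at 801 CPM or more (CPM, counts scaled to library size). On the first principal component of 1000 variable genes, which held 29.6% of their variance, KO 4 (15.4) and WT 5 (25.9) lay apart from the other libraries (-15.2 to -4.79). Calls and the signs of vessel genes are therefore also given without KO 4 and WT 5 where that changes them.

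All 33 vessel genes had counts in every library. The lowest was 3 counts, for Tagln in KO 6, and 28 genes had at least 100 counts in each library. The scale for levels between genes was FPKM, which divides by gene length. Bsg, which encodes basigin, a partner protein of lactate carriers, stood alone at the top with 217 ± 16.0 FPKM (SD over 6 libraries). The next levels were the pericyte gene Vtn (29.2 FPKM), the glucose carrier gene Slc2a1 (28.5 FPKM) and Itm2a (27.8 FPKM), which did not differ beyond their spread. Ly6c1, Slc7a5, Rgs5, Cldn5, Ly6a and Tjp1 followed between 21.9 and 13.1 FPKM, and 19 more genes lay between 9.82 FPKM (Slco1a4) and 0.852 FPKM (Emcn). The smooth muscle genes were low: Des and Acta2 lay at 2.79 and 2.75 FPKM, Myh11 at 0.738 FPKM and Tagln at 0.203 FPKM. Only 4 of the 32 neighbouring pairs in this order were apart by more than their spread, which were Bsg and Vtn, Tjp1 and Slco1a4, Ocln and Flt1, and Myh11 and Tagln.

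**Figure D1:**
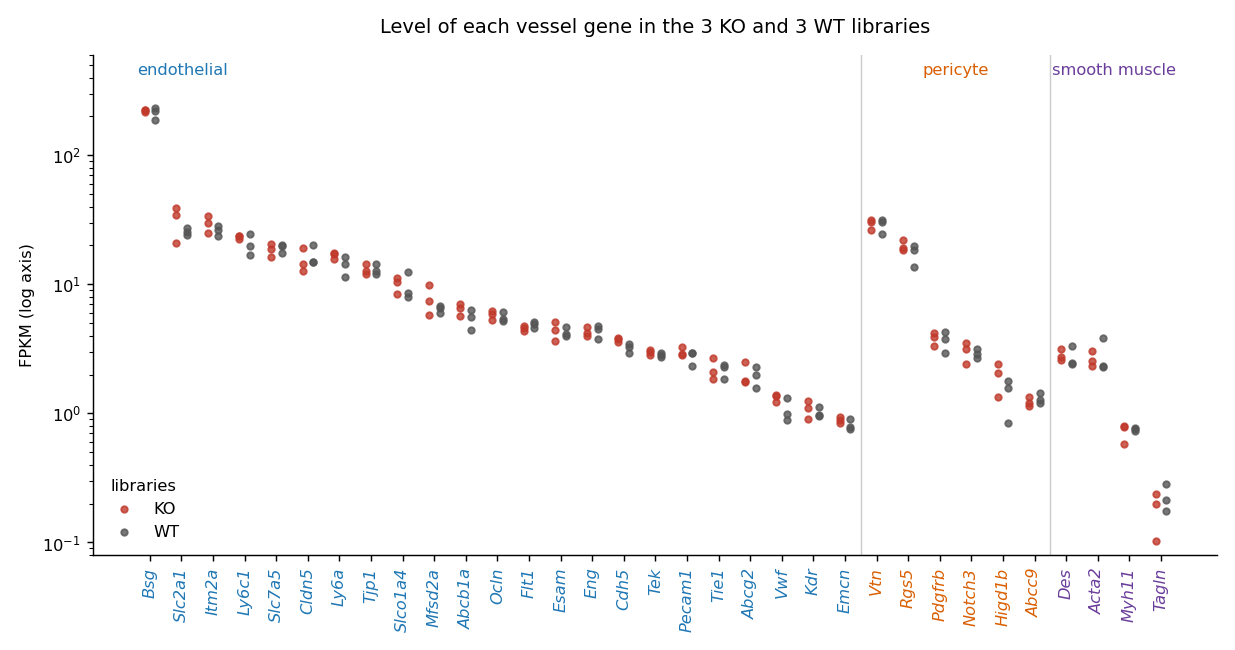
FPKM (log axis) of each of the 33 vessel genes in the 3 KO libraries (red) and the 3 WT libraries (grey), ordered by mean level within the endothelial, pericyte and smooth muscle classes. Bsg lies far above the rest at 217 FPKM, Tagln is lowest at 0.203 FPKM, and the red and grey points of nearly every gene intermingle.

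No vessel gene passed the test between KO and WT. Of 32 tested genes 0 had an adjusted p under 0.05, and each adjusted p was 1.0, while 0.0467% of all 17142 genes tested passed (edgeR, Benjamini-Hochberg adjustment). None of the 32 had an unadjusted p under 0.05, a level that 2.75% of all genes reached. By DESeq2 and limma-voom 0 vessel genes passed as well. Without KO 4 and WT 5 again 0 passed. There 7 of the 32 had an unadjusted edgeR p under 0.05 (Abcb1a, Ly6a, Ly6c1, Mfsd2a, Rgs5, Slc2a1 and Vwf), against 4.26% of all genes. That fit held only KO 2 and KO 6 against WT 1 and WT 3. Of the libraries left out, WT 5 was the highest WT library of Abcb1a, Ly6a, Ly6c1, Rgs5 and Vwf. The other, KO 4, was the lowest library of Slc2a1 and Mfsd2a. Without WT 5 alone 5 of the 32 had such a p, against 3.78% of all genes. Tagln was too low for the filter and was not tested. In the authors' deposited table the adjusted p of all 33 was 0.9999. The log2 fold changes ran from -0.11 (Cldn5) to 0.46 (Higd1b), with a median of 0.07 against -0.004 over all genes. They were positive for 25 of the 32 genes, or 78.1%, and for 48.8% of all genes. In bulk RNA a difference in the number of vessel cells and one in RNA per cell cannot be told apart.

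The 95% intervals say what sizes these libraries leave possible. In 26 of the 32 genes the whole interval lay within 1.5-fold in either direction, which was so for 60.5% of all genes. The 6 genes with wider intervals were Slc2a1, Mfsd2a, Ly6a, Vwf, Higd1b and Acta2. Within 1.25-fold lay the intervals of 5 genes, Tjp1, Flt1, Slc7a5, Bsg and Vtn. An interval typically reached 0.34 to each side on the log2 scale (0.37 over all genes). Estimates smaller than that would mostly have left 0 within the interval. A call was stricter still, since p was adjusted over all 17142 genes. Changes larger than the reach of an interval could therefore also have gone without a call.

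**Figure D2:**
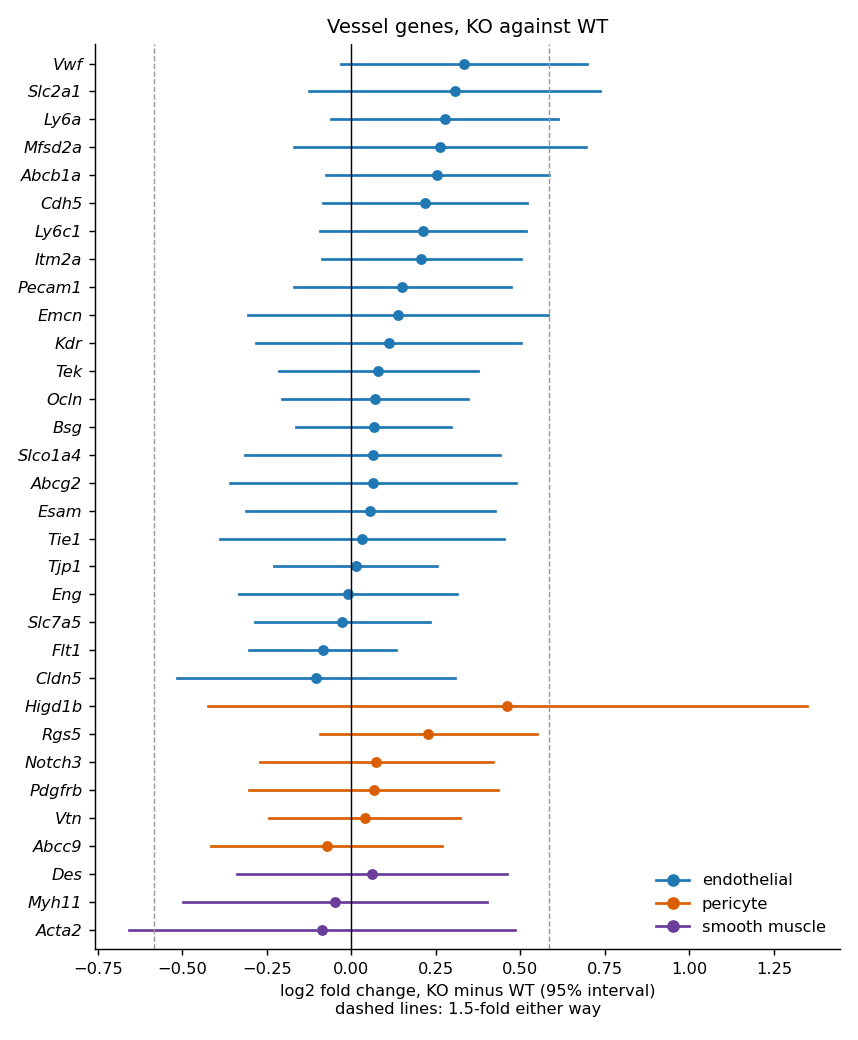
Log2 fold change, KO minus WT, of the 32 tested vessel genes, with 95% intervals as horizontal bars and the 3 classes in different colours; dashed lines mark 1.5-fold in each direction. Every interval spans 0, and the interval of the low pericyte gene Higd1b is the widest, from -0.42 to 1.35.

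Of the 8 genes that passed in the whole table, 5 were on a list of 15 interferon response genes. Vessel promoters were therefore searched for the sequence known from such genes. The interferon-stimulated response element is known from promoters of genes that interferon induces, and its core is GAAA, then 2 bases of any kind, then GAAA. RefSeq promoter windows (GRCm38.p6, 250 bases before to 50 after the gene start) were at hand for 22 of the 33 vessel genes and were read on both strands. The core stood in 1 of these 22 (4.55%), in 3.99% of 27025 promoters of all genes and in 7 of 10 promoters (70%) of the interferon list. The vessel gene that held it was Vtn, where it began 5 bases after the RefSeq gene start (the deposited table starts Vtn upstream of that, at 78499091). The promoters of Vtn and of the barrier junction gene Cldn5, which lacks the core, are shown beside that of Ifit1, an interferon gene with 2 copies. They run 5′ to 3′ up to 30 bases after the gene start, on the plus strand, at chr11:78498870-78499149, chr16:18776597-18776876 and chr19:34640639-34640918 of GRCm38.p6, and capitals mark the core, read here from the opposite strand.
Vtn: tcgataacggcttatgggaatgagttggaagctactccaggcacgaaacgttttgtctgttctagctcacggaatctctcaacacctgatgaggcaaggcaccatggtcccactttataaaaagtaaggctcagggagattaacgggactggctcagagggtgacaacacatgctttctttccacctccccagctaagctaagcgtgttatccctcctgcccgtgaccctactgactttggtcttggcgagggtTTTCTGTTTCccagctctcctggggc
Cldn5: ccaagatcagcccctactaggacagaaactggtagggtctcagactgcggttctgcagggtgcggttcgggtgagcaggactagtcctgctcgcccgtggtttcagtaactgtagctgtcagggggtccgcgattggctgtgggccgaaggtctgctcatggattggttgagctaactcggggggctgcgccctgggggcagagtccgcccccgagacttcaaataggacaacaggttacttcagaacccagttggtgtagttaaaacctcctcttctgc
Ifit1: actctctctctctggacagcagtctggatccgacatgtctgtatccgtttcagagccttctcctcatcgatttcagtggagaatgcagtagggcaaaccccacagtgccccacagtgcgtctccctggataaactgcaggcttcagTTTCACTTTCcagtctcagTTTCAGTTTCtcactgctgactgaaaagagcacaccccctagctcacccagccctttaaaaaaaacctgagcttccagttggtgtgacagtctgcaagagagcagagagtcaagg

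Ifit1, which binds foreign RNA and blocks its translation, had 10.2, 16.7 and 18.2 CPM in KO 2, KO 4 and KO 6, against 2.32, 1.97 and 3.14 CPM in WT 1, WT 3 and WT 5. Its groups did not overlap, and it rose by 2.60 on the log2 scale (SE 0.27; adjusted p = 0.0126 by edgeR). Vtn, the vessel gene with the core, had 56.4, 65.0 and 67.4 CPM in KO, against 67.0, 64.8 and 51.9 CPM in WT, and its groups overlapped. The CArG box, which serum response factor binds in smooth muscle genes, was searched only as CCWWWWWWGG, where W is A or T. It stood in 0 of the 22 and in 1.81% of all promoters, and 2 of the 4 smooth muscle genes had a window to search. With so low a share over all promoters, 0 of 22 says little, and variants of the sequence were not searched. A motif match is a description of letters and not of binding.

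Junction genes came first among the endothelial genes, and 5 of the 6 were positive with a median log2 fold change of 0.06. Cldn5 (chromosome 16, 18776847 to 18778262) encodes claudin-5, the main seal of the endothelial tight junction. Its level was 21.3, 18.8 and 28.4 CPM in KO 2, KO 4 and KO 6, against 22.2, 29.6 and 21.9 CPM in WT 1, WT 3 and WT 5. The groups overlapped, with KO 4 lowest and WT 3 highest (log2 fold change -0.11, SE 0.18, 95% interval -0.51 to 0.30). Occludin (Ocln), a second tight junction protein, and the scaffold ZO-1 (Tjp1) were at 0.07 and 0.01 on the log2 scale, with intervals of -0.21 to 0.34 and -0.23 to 0.25. Both are also known from other cells of the brain. Esam and Pecam1, adhesion molecules of endothelial contacts, were at 0.06 and 0.15.

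Cdh5 (chromosome 8, 104101625 to 104144511) was the only vessel gene whose KO and WT libraries did not overlap. It encodes VE-cadherin, the adherens junction protein that is specific to endothelium. It had 16.9, 16.6 and 15.8 CPM in KO 2, KO 4 and KO 6, against 14.4, 15.1 and 12.8 CPM in WT 1, WT 3 and WT 5. It averaged 16.4 ± 0.579 CPM in KO animals and 14.1 ± 1.18 CPM in WT animals (n = 3 each, SD). This gave a log2 fold change of 0.22 (SE 0.13, 95% interval -0.08 to 0.52) with an unadjusted edgeR p of 0.137. Among all genes tested, 7.26% had groups that did not overlap in either direction and 3.56% did so with KO higher, so 1 gene of 32 is near that background.

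Receptors of vessel growth factors had a median log2 fold change of 0.03, with 3 of 5 positive. The log2 fold changes were -0.08 for Flt1 and 0.11 for Kdr, the VEGF receptors, 0.08 for Tek, the angiopoietin receptor, 0.03 for its partner Tie1 and -0.01 for endoglin (Eng), a co-receptor for TGF-beta and BMP ligands. All 5 intervals lay within 1.5-fold. Flt1 and Tek were the steadiest vessel genes, with a coefficient of variation within groups of 5.03% and 4.18%. Flt1 (chosen for this after its values were seen) averaged 64.7 ± 2.92 CPM in KO animals and 68.6 ± 3.74 CPM in WT animals (n = 3 each, SD), with an interval of -0.30 to 0.13. An exon of Eng overlaps Fpgs (10.2 CPM) on the opposite strand. The sources used here do not say whether reads were counted by strand, so the count of Eng is uncertain to that extent.

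Among the 7 barrier transporter genes 6 were positive, with a median log2 fold change of 0.07. They include Slc2a1 and Mfsd2a, which varied most of the endothelial genes within groups (coefficients of variation of 23.7% and 21.3%). Slc2a1 (chromosome 4, 119108711 to 119137983) encodes GLUT1, the glucose carrier of brain endothelium, which astrocytes also make. It had 143, 77.2 and 127 CPM in KO 2, KO 4 and KO 6, against 100, 93.9 and 86.7 CPM in WT 1, WT 3 and WT 5. The KO libraries thus held both the highest values and the lowest one, while the WT libraries lay close together. It averaged 116 ± 34.4 CPM in KO animals and 93.6 ± 6.87 CPM in WT animals (n = 3 each, SD). The log2 fold change of 0.31 had an SE of 0.19, a 95% interval of -0.13 to 0.74 and an unadjusted edgeR p of 0.145. Without KO 4 the log2 fold change of Slc2a1 was 0.53 (edgeR adjusted p = 0.348), and without KO 2 it was 0.12.

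Mfsd2a, which carries the omega-3 fatty acid DHA as a lysophospholipid into the brain, had the same order in KO. It was chosen after its values were seen. Its level was 23.3, 13.6 and 17.5 CPM in KO 2, KO 4 and KO 6, against 16.1, 15.4 and 13.9 CPM in WT 1, WT 3 and WT 5 (log2 fold change 0.26, 95% interval -0.17 to 0.69). Slc2a1, Mfsd2a and Slc7a5, the large neutral amino acid carrier LAT1, were the 3 vessel genes that were highest in KO 2 and lowest in KO 4. For Slc7a5 these extremes were 80.0 CPM in KO 2 and 63.5 CPM in KO 4, its WT libraries lay at 66.8 to 77.7 CPM, and its log2 fold change was -0.03. Removing KO 2 brought Mfsd2a to 0.04 on the log2 scale.

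Abcb1a, the P-glycoprotein pump, averaged 37.1 ± 3.93 CPM in KO animals and 31.1 ± 5.30 CPM in WT animals (n = 3 each, SD), with KO 2 highest and WT 1 lowest. Its log2 fold change was 0.25 (SE 0.15, 95% interval -0.08 to 0.58). Its near copy Abcb1b was low, with a mean of 1.68 CPM in KO and 1.32 CPM in WT. Abcg2, the breast cancer resistance protein pump, and Slco1a4, which carries thyroid hormone and other organic anions, were both at 0.06 on the log2 scale. Bsg had 427, 409 and 431 CPM in KO 2, KO 4 and KO 6, against 417, 442 and 351 CPM in WT 1, WT 3 and WT 5. Its groups overlapped, with WT 5 lowest (log2 fold change 0.07, SE 0.10, 95% interval -0.16 to 0.29). Bsg averaged 221 ± 5.97 FPKM in KO animals and 213 ± 23.6 FPKM in WT animals (n = 3 each, SD), and many cells of the brain make it.

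The surface and secreted endothelial genes all had positive log2 fold changes, 5 of 5, with a median of 0.21, and none passed. Vwf, von Willebrand factor, which endothelium stores and releases for clotting, had the smallest unadjusted p of all vessel genes (0.0686). It had 20.6, 23.6 and 23.2 CPM in KO 2, KO 4 and KO 6, against 14.8, 16.6 and 22.0 CPM in WT 1, WT 3 and WT 5. Only WT 5 reached into the KO values (log2 fold change 0.33, SE 0.16, 95% interval -0.03 to 0.70). Ly6a, the surface protein Sca-1, averaged 21.3 ± 1.10 CPM in KO animals and 17.6 ± 2.97 CPM in WT animals (n = 3 each, SD), a log2 fold change of 0.28. Its neighbour and relative Ly6c1 averaged 41.3 ± 1.28 CPM in KO animals and 35.6 ± 6.25 CPM in WT animals (n = 3 each, SD), a log2 fold change of 0.21.

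The unadjusted edgeR p was 0.0966 for Ly6a and 0.153 for Ly6c1. In both genes the WT libraries spread more widely than the KO libraries, and WT 5 again lay within or above the KO values. Vwf, Ly6a and Ly6c1 were picked for these sentences after their values were seen. Ly6c2, a near copy of Ly6c1 on which reads could be split, had 2 counts over the KO libraries and 10 over the WT libraries. Itm2a, a membrane protein of uncertain role in endothelium, had 55.1, 62.2 and 46.0 CPM in KO 2, KO 4 and KO 6, against 47.7, 43.0 and 50.8 CPM in WT 1, WT 3 and WT 5. KO 6 lay below 2 of the WT libraries (log2 fold change 0.21, SE 0.13, 95% interval -0.09 to 0.50). Emcn, the sialomucin endomucin of veins and capillaries, was at 0.14 with 4.24 to 5.37 CPM.

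Pericyte genes were likewise without a call, 5 of 6 being positive with a median log2 fold change of 0.07. Vtn encodes vitronectin, an adhesion protein that brain pericytes secrete. Its promoter is printed above, and its values overlapped fully (log2 fold change 0.04, SE 0.13, 95% interval -0.24 to 0.32). Pdgfrb, the receptor through which endothelial PDGF-B recruits pericytes, had 22.4, 19.0 and 24.0 CPM in KO 2, KO 4 and KO 6, against 24.3, 21.5 and 16.6 CPM in WT 1, WT 3 and WT 5. WT libraries gave both its highest and its lowest value (0.07, SE 0.16, 95% interval -0.30 to 0.43).

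Rgs5, a brake on G protein signalling that marks pericytes, had 106, 91.7 and 87.6 CPM in KO 2, KO 4 and KO 6, against 64.4, 86.7 and 92.9 CPM in WT 1, WT 3 and WT 5. Its groups overlapped, and WT 1 lay well below the other 5 libraries (log2 fold change 0.23, SE 0.14, 95% interval -0.09 to 0.55), and without WT 1 the value was 0.09. Notch3, a Notch receptor of mural cells, and Abcc9, the SUR2 subunit of a potassium channel, were at 0.07 and -0.07. Higd1b, a small mitochondrial protein gene used as a pericyte marker, had the highest log2 fold change of the set and the fewest counts of the tested genes. These were 29, 17 and 30 counts in KO 2, KO 4 and KO 6, against 22, 22 and 10 in WT 1, WT 3 and WT 5, and without WT 5 the log2 fold change was 0.20.

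Smooth muscle genes were close to 0 and not all on the same side. Acta2, smooth muscle actin, had 4.39, 4.81 and 5.73 CPM in KO 2, KO 4 and KO 6, against 4.27, 7.20 and 4.32 CPM in WT 1, WT 3 and WT 5. WT 3 stood above the other 5 libraries (log2 fold change -0.09, SE 0.26, 95% interval -0.66 to 0.49), and without WT 3 the value was 0.22. Myh11, the smooth muscle myosin heavy chain, had 6.34, 4.60 and 6.38 CPM in KO, against 5.80, 6.05 and 6.07 CPM in WT. Only KO 4 was low for Myh11 (-0.05, SE 0.20, 95% interval -0.50 to 0.40).

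Des, the intermediate filament desmin, which pericytes also hold, had 12.4, 10.3 and 10.8 CPM in KO 2, KO 4 and KO 6, against 9.56, 13.1 and 9.51 CPM in WT 1, WT 3 and WT 5. As with Acta2, WT 3 was highest (0.06, SE 0.18, 95% interval -0.34 to 0.46). Tagln, transgelin, an actin-binding protein, had 8, 6 and 3 counts in KO 2, KO 4 and KO 6, against 5, 7 and 8 in WT 1, WT 3 and WT 5. These counts are too few for a comparison, and an exon of Tagln overlaps Pcsk7 (34.8 CPM) on the opposite strand. Des, Slc2a1, Abcb1a, Notch3 and Abcc9 overlap opposite-strand genes of at most 1.84 CPM.

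**Figure D3:**
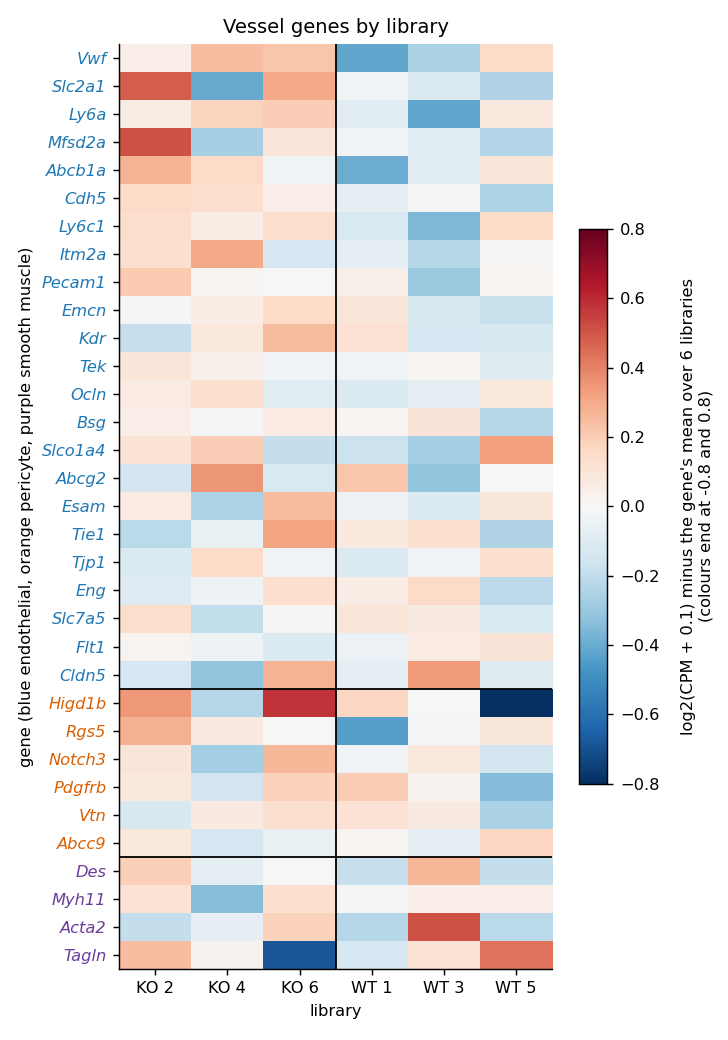
Level of each vessel gene in each library as log2(CPM + 0.1) minus the gene's mean over the 6 libraries (red higher, blue lower, colours ending at -0.8 and 0.8), with endothelial, pericyte and smooth muscle genes in blocks and KO libraries left of WT libraries. Slc2a1 and Mfsd2a are red in KO 2 and blue in KO 4, Vwf and Rgs5 are blue in WT 1, and Acta2 and Des are red in WT 3.

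The 3 classes were set side by side by their median log2 fold change, which was 0.08 for 23 endothelial genes, 0.07 for 6 pericyte genes and -0.05 for 3 smooth muscle genes. Positive values were found for 19 of 23, 5 of 6 and 1 of 3. Without Bsg, Slc7a5, Tjp1, Slc2a1 and Ocln, which other brain cells also make, the remaining 18 endothelial genes had a median of 0.12 with 15 positive. Summed FPKM over the endothelial genes was 441, 412 and 436 in KO 2, KO 4 and KO 6, against 409, 418 and 387 in WT 1, WT 3 and WT 5. Without the 5 broad genes it averaged 139.7 ± 1.20 in KO animals and 128 ± 8.44 in WT animals (n = 3 each, SD). In that sum WT 5 (137.5) lay just below KO 6 (138.6), the lowest KO library, while WT 1 and WT 3 were at 125.0 and 121.4. The pericyte sums averaged 59.4 ± 1.75 FPKM in KO animals and 55.4 ± 3.11 FPKM in WT animals, and the smooth muscle sums 6.39 ± 0.389 FPKM in KO animals and 6.55 ± 1.42 FPKM in WT animals.

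A score per library, the mean log2 CPM of a class with each gene centred over the 6 libraries, showed which libraries were high or low. For the endothelial class it was 0.07, 0.02 and 0.08 in KO 2, KO 4 and KO 6, against -0.05, -0.09 and -0.03 in WT 1, WT 3 and WT 5. All KO libraries thus lay above all WT libraries, by 0.11 on average, or a difference well under the 1.25-fold bound used above. By role, the scores of the barrier transporters (difference 0.13) and of the surface and secreted genes (0.24) did not overlap either. Both came close to it. The barrier transporters were at -0.02 in KO 4 and -0.04 in WT 1, while KO 2 stood highest at 0.20. The surface and secreted genes were at 0.07 in KO 2 and 0.04 in WT 5. Scores of the junction genes (0.06) and receptors (0.02) overlapped. The pericyte score overlapped, with KO 6 highest (0.18) and WT 5 lowest (-0.22), and it includes Higd1b, which had 10 counts in WT 5. The smooth muscle score had both extremes in WT, at 0.23 in WT 3 and -0.14 in WT 1. It includes all 4 genes, with Tagln at 3 to 8 counts per library, whereas the median of that class rests on 3. No test was run on scores, no share over all genes was worked out for them, and no difference between classes was tested.

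Markers of other cells also differed between these libraries. The microglia score was 0.03, 0.14 and 0.40 in KO 2, KO 4 and KO 6, against -0.18, -0.23 and -0.16 in WT 1, WT 3 and WT 5. Of 12 microglia markers 11 were positive, their summed level being 156 to 204 CPM in KO and 126 to 137 CPM in WT. The remaining marker went the other way, at -0.79 on the log2 scale. Groups did not overlap in 6 of the 12 with KO higher and in 1 with KO lower, against 7.26% of all genes in either direction. The interferon list, which includes genes endothelial cells can also express, had 15 of 15 positive with a summed level of 135 to 181 CPM in KO and 38.0 to 57.3 CPM in WT. Markers of the epithelial cells of the choroid plexus, which lies next to the cerebellum, varied most. All 14 of 14 were positive, and their summed level was 1067 to 3328 CPM in KO and 453 to 1400 CPM in WT. KO 4 was highest, WT 5 was lowest and the groups overlapped. Fibroblast markers of the meninges and vessel walls were positive in 12 of 12, with 172 to 220 CPM in KO and 133 to 180 CPM in WT. Summed levels overlapped for blood cell markers (3 of 7 positive, 52.4 to 72.6 CPM in KO and 48.7 to 84.5 CPM in WT). They also overlapped for markers of astrocyte endfeet (4 of 10 positive, 1783 to 1899 CPM in KO and 1846 to 1951 CPM in WT). Even so, 2 of the 10 endfeet markers had KO libraries all below the WT libraries, and 0 had them all above. Groups did not overlap in 7.26% of all genes. No marker of these lists was at 0 in all libraries, and the part of these cells in the vessel gene values was not tested.

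**Figure D4:**
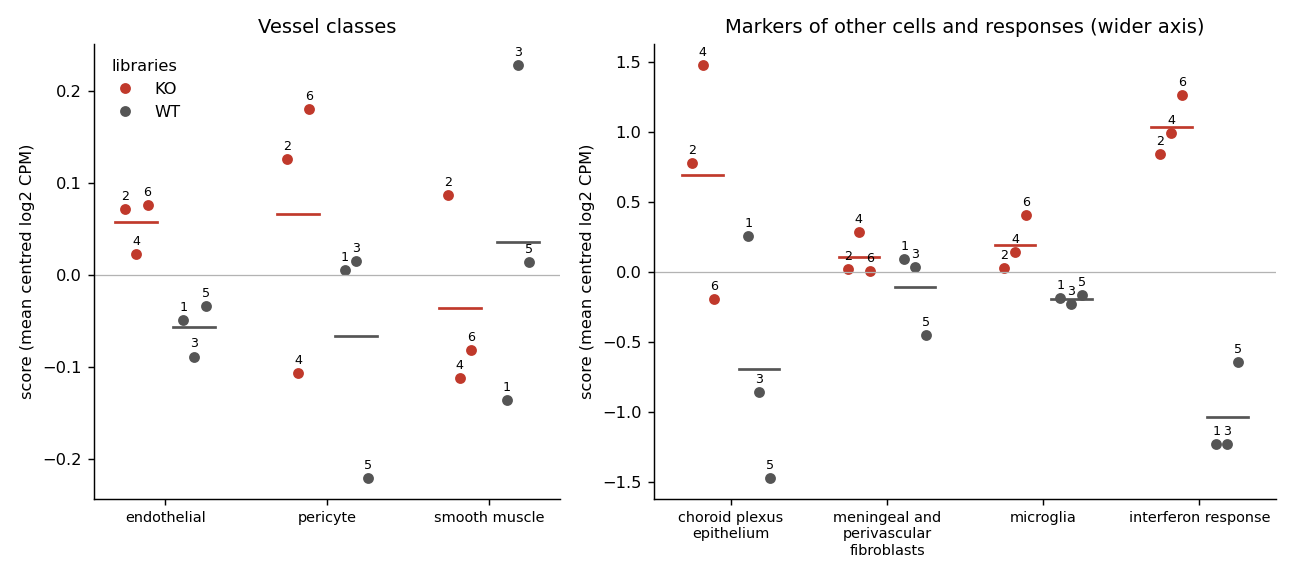
Score per library (mean log2 CPM of a list, each gene centred over the 6 libraries) for the vessel classes (left panel) and for markers of other cells and the interferon response (right panel, wider axis), with KO in red left of WT in grey, numbers giving the animal and bars the group mean. The endothelial KO and WT points are separate but only 0.11 apart, while the interferon points are 2.07 apart and the choroid plexus points spread from -1.47 to 1.48.

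Other genes of vessel biology gave the wider setting. Of 145 listed names 144 were in the table and 135 could be tested. None of the 135 passed in either direction (1, Cgnl1, did with no filter on low counts), 4 had an unadjusted edgeR p under 0.05, a share close to the 2.75% of all genes, and 82 were positive (60.7%, against 48.8% of all genes) with a median of 0.03 on the log2 scale. Groups did not overlap in 9 of the 135 (6 with KO higher, 3 with KO lower), again close to the 7.26% of all genes. Ligands (13 of 16 positive, median 0.08) and receptors (12 of 17, 0.06) were followed by Wnt pathway genes of the barrier (9 of 15, 0.02), transcription factors (10 of 17, 0.04), other capillary genes (15 of 26, 0.02), arterial and venous genes (6 of 12, 0.02), genes of endothelial activation (8 of 11, 0.21) and other mural genes (9 of 21, -0.05).

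Genes of these lists with an unadjusted p under 0.05 included Bmp4, Ets1 and Slc7a1, and none passed over all genes (edgeR adjusted p). They are given as values, since their number is near the background, and in these 3 genes the groups did not overlap. Bmp4, a BMP ligand, averaged 2.56 ± 0.706 CPM in KO animals and 1.29 ± 0.299 CPM in WT animals (n = 3 each, SD), a log2 fold change of 0.98. Ets1, a transcription factor of endothelial and lymphoid cells, averaged 14.0 ± 0.383 CPM in KO animals and 10.3 ± 1.58 CPM in WT animals (0.45 on the log2 scale). Slc7a1, a carrier of cationic amino acids, averaged 42.1 ± 2.79 CPM in KO animals and 50.5 ± 4.01 CPM in WT animals (-0.27).

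The activation list includes adhesion molecules of inflammation, though bulk RNA does not show which cells held these transcripts. Vcam1, which binds white blood cells, averaged 29.5 ± 1.15 CPM in KO animals and 23.7 ± 4.24 CPM in WT animals (n = 3 each, SD). Of the 11 tested genes of the list it was the only one whose groups did not overlap, against 7.26% of all genes. Vcam1 lay at 28.8 to 30.9 CPM in KO and at 19.2 to 27.6 CPM in WT. Its log2 fold change was 0.32 (95% interval -0.01 to 0.65), and that of thrombomodulin (Thbd), a brake on clotting, was 0.47 (95% interval -0.03 to 0.97). Icam1, an adhesion molecule for white blood cells, had 1.07, 2.58 and 2.72 CPM in KO 2, KO 4 and KO 6, against 1.74, 1.34 and 1.17 CPM in WT 1, WT 3 and WT 5. Its groups overlapped, and its log2 fold change of 0.57 was the highest of the list with a wide 95% interval of -0.33 to 1.48. The selectins were almost silent: Sele had 5 counts in KO 6 and 0 in the other 5 libraries, and Selp had 1 count each in KO 6 and WT 5. Plvap, which forms the diaphragms of leaky vessels and is low in barrier capillaries, had 14.0, 11.9 and 19.3 CPM in KO 2, KO 4 and KO 6, against 18.2, 13.9 and 11.9 CPM in WT 1, WT 3 and WT 5. Its groups overlapped fully (log2 fold change 0.04). Icam1, the selectins and Plvap were chosen after their values were seen.

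The 2 most abundant genes of the remaining lists lay between -0.13 and 0.07. On the log2 scale Ctnnb1 (beta-catenin) was at -0.004 and its Wnt co-receptor Lrp6 at 0.07, the receptors Bmpr2 and S1pr1 at 0.02 and -0.04, Stmn2 and Ackr1 of the arterial and venous list at -0.13 and -0.01, and the mural genes Tpm1 and Gucy1b1 at -0.04 and -0.07. Only for Stmn2 among these did the groups not overlap, with 440 to 463 CPM in KO and 479 to 509 CPM in WT. Ctnnb1, Stmn2 and Ackr1 are also known from neurons of the cerebellum, and bulk RNA does not show which cells the others came from.

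**Figure D5:**
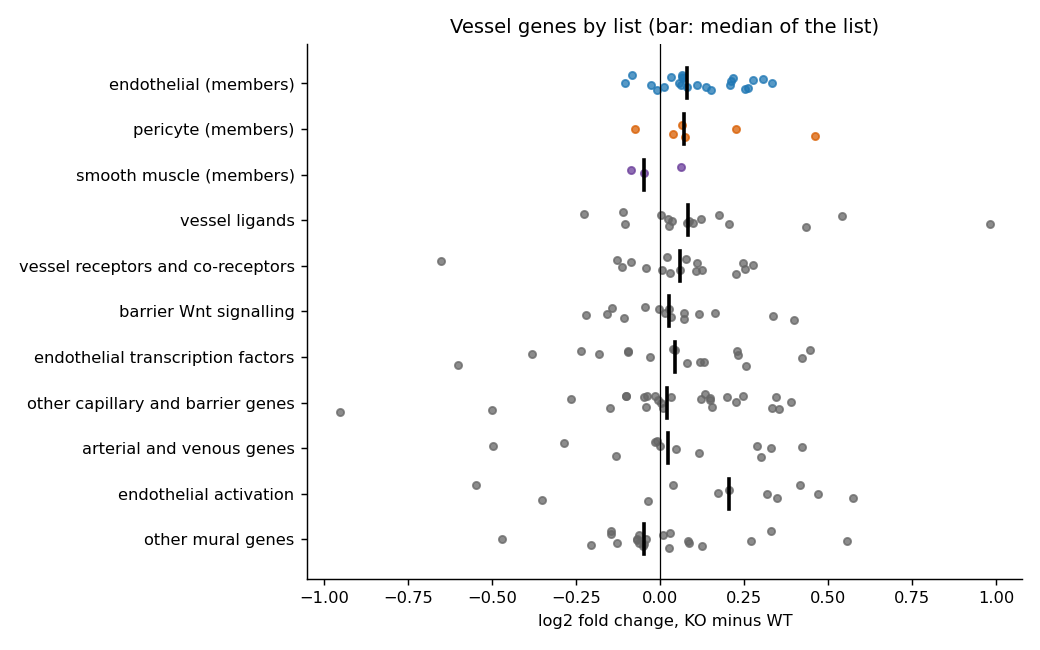
Log2 fold change, KO minus WT, of each tested gene of the vessel set (coloured) and of 8 other lists of vessel genes (grey), 1 point per gene, with a black bar at the median of each list. The medians run from -0.05 for smooth muscle and other mural genes to 0.21 for endothelial activation, and none of the points stands for a gene that passed the test.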

How the data were processed

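TRIZOL extracts of whole cerebellum were turned into libraries by an outside company with a protocol of its own, per the labels' protocols. The submitters' processing notes name HISAT2, DESeq2 and GRCm38.p6 but no versions. The counting program and its strand setting were not given in the sources used here. Count columns deposited by the authors are raw whole numbers for each gene and library. Their deposited FPKM columns scale these counts for gene length and library total. The deposited group means are a signal per group from the authors, and further deposited columns hold their log2 fold changes, p-values and adjusted p-values for KO against WT.

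Group and animal number came from the sample titles. The quasi-likelihood F test of edgeR 4.0.16 (R 4.3.3) was fitted to the raw counts after filterByExpr had kept 17142 genes, with TMM factors of 0.990 to 1.01. P-values were adjusted over all 17142 by Benjamini-Hochberg, and an adjusted p under 0.05 made a call. Log2 fold changes are KO minus WT. CPM values are TMM-normalised, and 1 count was worth 0.0628 to 0.0731 CPM after that scaling. An exact permutation test of 3 against 3 animals cannot go below p = 0.1, so none is given. Alternatives were RLE and upper quartile scaling, no filter, DESeq2 1.42.0, limma-voom (limma 3.58.1), robust shrinkage, a term for WT 5 and KO 4, leaving both out, and leaving out each library. Scores used log2 CPM with a prior count of 2. Only the edgeR fit was tested on simulated counts, and the other steps were not. Python 3.11.15, pandas 2.3.3 and matplotlib 3.10.9 served for tables and plots.

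The vessel genes, their classes and all lists were chosen with earlier results of these data known. Values in every library were given for vessel genes that passed, had an unadjusted p under 0.05 or had groups that did not overlap, and for the 3 with the highest FPKM of each class (all 4 of smooth muscle). Of each other vessel list, genes that passed or had an unadjusted p under 0.05 at 1 CPM or more were named, or else the 2 with the highest CPM. A gene that this rule names and a motif that was searched are not reported here. Exon overlap came from the reference annotation of GRCm38 and promoter sequences from RefSeq.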

Additional observations from a re-analysis of the deposited data

How the results depend on the processing

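No vessel gene of the set passed under any of the 14 alternatives. The smallest adjusted p was 0.103 by edgeR, for Slc2a1 with WT 5 and KO 4 left out. That fit held only KO 2 and KO 6 against WT 1 and WT 3. There 7 vessel genes had an unadjusted edgeR p under 0.05 (Abcb1a, Ly6a, Ly6c1, Mfsd2a, Rgs5, Slc2a1 and Vwf), against 4.26% of all genes. The log2 fold changes of these 7 were 0.36 (Rgs5) to 0.48 (Slc2a1) there, and 0.21 (Ly6c1) to 0.33 (Vwf) with all libraries. Of the 32 tested genes 24 were positive there, against 25 with all libraries. With a term for these libraries the vessel genes with such a p were Itm2a, Ly6a, Slc2a1 and Vwf, against 6.00% of all genes. Scaling moved the median of all genes by at most 0.007. Of the 32 tested genes 16 kept their sign under every alternative, and those that did not had a log2 fold change of at most 0.11 in size.

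The count over all genes, 8, was 38 by DESeq2, 142 with no filter, 34 with the term, 40 without WT 5 and KO 4, and 0 to 28 with single libraries left out (0 without WT 1 or without WT 3, 2 without KO 2, 3 without KO 6, 17 without KO 4 and 28 without WT 5). With no filter 1 other vessel gene, the junction gene Cgnl1, passed (log2 fold change -0.49, edgeR adjusted p = 0.00964). Cgnl1 had 1273, 1626 and 1476 counts in KO 2, KO 4 and KO 6, against 1092, 2740 and 2306 in WT 1, WT 3 and WT 5, so its groups overlapped, and the cause was not tested. The endothelial median was 0.12 without the 5 broad genes and 0.080 to 0.13 with single libraries left out, the pericyte median -0.01 to 0.19, and the smooth muscle median -0.12 to 0.22 (0.22 without WT 3). Slc39a14 was at 0.0025 with no filter, at 0.0026 with upper quartile scaling, at 0.063 without WT 5 and KO 4, and at -0.065 to 0.041 with single libraries left out.

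Without WT 5 and KO 4, signs turned for Tie1 (-0.030), Abcg2 (-0.11), Abcc9 (0.045), Vtn (-0.088) and Myh11 (0.10). With single libraries left out the log2 fold change spanned 0 for Cldn5 (-0.29 to 0.059), Tjp1 (-0.061 to 0.085), Esam (-0.061 to 0.18), Tie1 (-0.14 to 0.15), Eng (-0.11 to 0.074), Abcg2 (-0.11 to 0.20), Slco1a4 (-0.046 to 0.28), Slc7a5 (-0.11 to 0.061), Bsg (-0.022 to 0.14), Pdgfrb (-0.069 to 0.19), Notch3 (-0.048 to 0.21), Vtn (-0.064 to 0.11), Acta2 (-0.22 to 0.22), Myh11 (-0.12 to 0.094) and Des (-0.021 to 0.24). No paired analysis was possible because KO and WT share no animal number.

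Tagln, Higd1b, Emcn, Acta2 and Myh11 had the lowest mean counts, and every comparison rests on 3 animals per group. Acta2 had a coefficient of variation within groups of 25.0%, with 113 counts in WT 3 against 59 each in WT 1 and WT 5. How far counting error and spread between animals each limit a gene was not tested. The intervals of the log2 fold changes came from the edgeR fit, so they cover spread between animals as well as counting error.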
